A study of Rattus norvegicus with 48 samples.

Results

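Liver miRNAs of rats given a low dose of thioacetamide (TAA) for 14 days were compared with those of time-matched controls. The comparison used 6 of the 48 libraries of the series, chosen by their labels. Male Sprague-Dawley rats received TAA once daily at 4.5 mg/kg for 14 days (low dose 14-d, n = 3, rats 40, 41 and 42) or vehicle alone (control 14-d, n = 3, rats 13, 14 and 15). The other libraries came from rats treated at 4.5, 15 or 45 mg/kg for 3, 7, 14 or 28 days and from the controls of each time point, with 3 rats in each group. The age of the animals is not given in the sources used here. Each library held the whole-liver RNA of 1 rat, so fewer cells of a type and less RNA per cell cannot be told apart.

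TAA is a liver toxicant that hepatocytes convert to reactive products, and long exposure causes fibrosis and tumors in rats. A miRNA is cut as a short duplex from a hairpin precursor. One strand of the duplex, the guide, is usually loaded into a silencing complex and the other, the passenger, is mostly degraded. The seed, bases 2 to 8 of the mature strand, pairs with target mRNAs, so miRNAs with the same seed share many targets. In liver, miR-122 and miR-192 are abundant hepatocyte miRNAs, and miR-34a is a direct transcriptional target of p53, the factor that responds to DNA damage.

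Mature sequences were read from RefSeq (build GRCr8), which matched 270 of the 301 tested miRNAs by name. Those below are miRNAs with the main changes and some of their relatives, and each set shows which relatives share a seed. Capitals mark the seed, and sequences run 5′ to 3′. The first set is miR-34a-5p with its relatives of the same seed.
miR-34a-5p: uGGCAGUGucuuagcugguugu
miR-449a-5p: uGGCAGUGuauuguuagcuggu
miR-34c-5p: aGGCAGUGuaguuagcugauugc
The second set is the let-7 seed, with the passenger strand of the let-7a hairpin last for contrast.
let-7a-5p: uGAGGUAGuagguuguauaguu
miR-98-5p: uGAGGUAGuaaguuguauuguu
let-7g-5p: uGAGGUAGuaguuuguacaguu
let-7e-5p: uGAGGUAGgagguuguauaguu
let-7a-1-3p: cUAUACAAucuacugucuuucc
The third set holds other miRNAs that were higher, and miR-146a-5p, which was not, as a relative of miR-146b-5p. The miR-190 and miR-146 members share a seed within each pair.
miR-190b-5p: uGAUAUGUuugauauuagguu
miR-190a-5p: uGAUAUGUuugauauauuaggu
miR-146b-5p: uGAGAACUgaauuccauaggcugu
miR-146a-5p: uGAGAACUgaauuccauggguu
miR-7a-5p: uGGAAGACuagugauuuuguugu
miR-25-3p: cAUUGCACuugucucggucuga
The fourth set holds miRNAs that were lower, beside relatives of the same seed.
miR-29a-3p: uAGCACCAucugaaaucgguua
miR-29b-3p: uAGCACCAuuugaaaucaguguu
miR-29c-3p: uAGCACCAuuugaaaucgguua
miR-26a-5p: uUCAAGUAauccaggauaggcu
miR-26b-5p: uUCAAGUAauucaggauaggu
miR-19a-3p: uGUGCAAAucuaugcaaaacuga
miR-19b-3p: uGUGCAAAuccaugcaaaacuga
miR-125a-5p: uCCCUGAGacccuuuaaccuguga

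The control libraries held 9888864, 9795330 and 12830063 counted reads, and the low dose libraries 8595556, 9712968 and 9957863. A count of 3 reads, taken as the limit of detection, was 0.234 to 0.349 RPM (reads in every 1 M counted) in these 6, which covers counting error only. Pearson's r of log2 values was 0.989 to 0.995 between rats of a group and 0.971 to 0.979 between groups, and no pair agreed within sampling noise. The liver miRNAs miR-192-5p and miR-122-5p ranked among the most abundant miRNAs in the controls. Of 15 strands listed as muscle miRNAs, 10 had no read in any of the 6 libraries (miR-206-3p and miR-208a-3p among them), and the list summed to 23.1 to 24.7 RPM before scaling in the controls and 22.8 to 29.7 RPM after TAA. Of 6 brain strands, 3 had no read (miR-124-3p among them), and the list summed to 2.55 to 3.24 RPM and 5.15 to 10.6 RPM, with miR-9a-5p higher after TAA (log2 fold change 1.55).

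Of the 301 tested miRNAs, 98 were differentially expressed (DEMs, unadjusted p below 0.05 in edgeR's quasi-likelihood F-test and a fold change above 1.5), which is 32.6%. Higher levels were found for 69 (22.9%) and lower levels for 29 (9.63%). A Benjamini-Hochberg adjusted p below 0.05 at any fold was reached by 121 miRNAs (40.2%), of which 83 were higher and 38 lower, and 91 of the 98 DEMs were among them. This count was 80 without low dose rat 42. In 92 of the 98 DEMs, the 3 treated and the 3 control values did not overlap. The DEMs were called from these same values, so this count is not separate evidence of a difference. The changes were mostly moderate, with 30 DEMs above 2-fold (24 higher, 6 lower) and 6 above 4-fold. All values below are RPM scaled by upper quartile normalization unless stated otherwise, and a log2 fold change is low dose over control. Counts of DEMs in families and lists are to be read beside the shares over all tested miRNAs, 22.9% higher and 9.63% lower. No family or list was tested as a set.

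The balance of higher and lower DEMs depended on the scaling. With upper quartile normalization the median log2 fold change of all tested miRNAs was 0.11, and TMM normalization, DESeq2's size factors and library size alone moved it by -0.16, -0.12 and -0.14. The DEMs were then 49 higher and 51 lower with TMM, 52 and 45 with DESeq2's size factors, and 49 and 46 with library size alone. All 29 lower DEMs and 47 of the 69 higher ones kept their call under all of these scalings. Through every scaling, both other control sets, each library left out and 2 other tests, 40 DEMs kept their call (31 higher, 9 lower). The control set of all 12 controls holds a 3-d library of only 293331 counted reads. With that set 58 DEMs kept their call, and with that library left out of it 74 did.

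**Figure D1:**
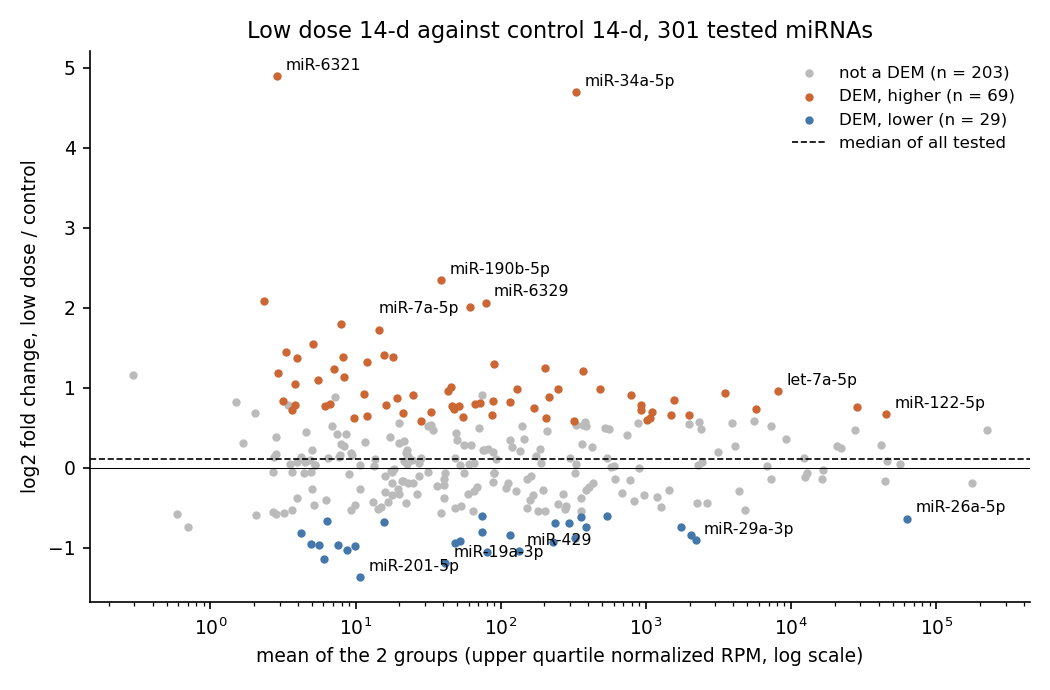
Log2 fold change (low dose 14-d over control 14-d) of the 301 tested miRNAs against the mean of both groups in upper quartile normalized RPM, on a log axis. Each point is 1 miRNA, colored by call, and the dashed line is the median of all tested miRNAs (0.11). miR-34a-5p stands at 4.70 among miRNAs of intermediate level, whereas miR-6321 at 4.90 rests on few reads.

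DEMs were found at all levels. Among the 76 tested miRNAs with the lowest control means, up to 10.6 RPM, 24 were higher and 6 lower, and among the 75 with the highest, 14 were higher and 8 lower.

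The largest well-counted change was in miR-34a-5p, the p53 target. It measured 20.3, 27.4 and 25.8 RPM in the controls and 493, 457 and 954 RPM in the treated rats. The groups were far apart, although the third treated rat stood at about the level of both others combined. The log2 fold change of 4.70 had a standard error of 0.30 (edgeR adjusted p = 9.46e-07) and corresponds to a 25.9-fold difference. It stayed between 4.28 and 4.88 when single libraries were left out. Its hairpin lies at chr5:165815952-165816053 (GRCr8, plus strand) within the span of the uncharacterized gene LOC103692514.

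The passenger strand miR-34a-3p was too rare for the test, with 0, 2 and 2 reads in the controls and 10, 14 and 15 reads in the treated rats. Its treated mean of 1.37 ± 0.182 RPM before scaling (SD, n = 3) was at least 4.87-fold higher than the mean limit of detection of the controls, 0.281 RPM. Of the relatives with the same seed, miR-449a-5p rose from 2.99, 1.67 and 2.01 RPM to 4.56, 6.11 and 6.51 RPM (log2 fold change 1.37, standard error 0.32, edgeR adjusted p = 0.0059). The level of miR-34c-5p was 40.6, 42.1 and 48.6 RPM in the controls and 53.8, 37.6 and 75.9 RPM in the treated rats, which overlapped (log2 fold change 0.35, edgeR adjusted p = 0.264).

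miR-7a-5p, which represses growth factor receptor signaling, went from 25.6, 24.9 and 22.7 RPM to 92.0, 82.8 and 121 RPM. The increase was 4.05-fold (log2 2.02, standard error 0.20, edgeR adjusted p = 4.44e-05). miR-190b-5p measured 16.1, 7.59 and 14.5 RPM in the controls and 46.6, 68.4 and 78.9 RPM after TAA, a 5.07-fold difference (edgeR adjusted p = 0.000264). Both had no overlap between the groups, which was a condition in the choice of the leading DEMs. The other miRNA with the miR-190 seed, miR-190a-5p, was also higher, at 64.1, 43.1 and 49.5 RPM against 68.0, 95.6 and 111 RPM (log2 fold change 0.81, edgeR adjusted p = 0.0137). Of the 5 tested miR-7 and miR-190 strands, 3 were higher and 0 lower.

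miR-146b-5p, which NF-κB induces during inflammation, measured 195, 232 and 236 RPM in the controls and 450, 567 and 519 RPM in the treated rats (log2 fold change 1.21, standard error 0.16, edgeR adjusted p = 0.000264). miR-146a-5p has the same seed and is also an NF-κB target, and its values overlapped, at 860, 971 and 856 RPM against 935, 880 and 878 RPM (log2 fold change 0.00, standard error 0.13). miR-155-5p, another inflammation-induced miRNA, had a log2 fold change of 0.22 (edgeR adjusted p = 0.45). Of these 3 tested miRNAs, only miR-146b-5p was a DEM.

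Among miRNAs known from rodents, 2 of 6 tested strands of the miR-466 family were higher DEMs and 0 lower. The log2 fold changes of the 6 ran from -0.55 to 1.73 with a median of 0.05, so the family as a whole was not raised. miR-466c-5p went from 53.7, 52.9 and 48.05 RPM to 115, 124 and 142 RPM (log2 fold change 1.30, edgeR adjusted p = 0.000264). miR-466b-5p went from 6.46, 7.96 and 5.73 RPM to 19.6, 21.2 and 25.9 RPM (log2 fold change 1.73). Members of this family are near-identical copies, so the split of reads among them is uncertain. miR-6329 went from 24.5, 34.4 and 32.03 RPM to 66.9, 151 and 163 RPM (log2 fold change 2.07, edgeR adjusted p = 0.000499), and its first treated rat stood below both others.

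The fitted log2 fold change of miR-6321 was 4.90, but its reads did not follow the treatment across the series. It had 0, 5 and 1 reads in the 14-d controls and 39, 53 and 60 in the low dose 14-d rats. The 7-d controls held 51, 41 and 57 reads and the 3-d controls 0, 0 and 0. Within other groups rats also differed widely, such as 69, 0 and 2 reads at low dose 28-d. Against the 7-d and 28-d controls it was not a DEM (log2 fold change 1.14).

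**Figure D2:**
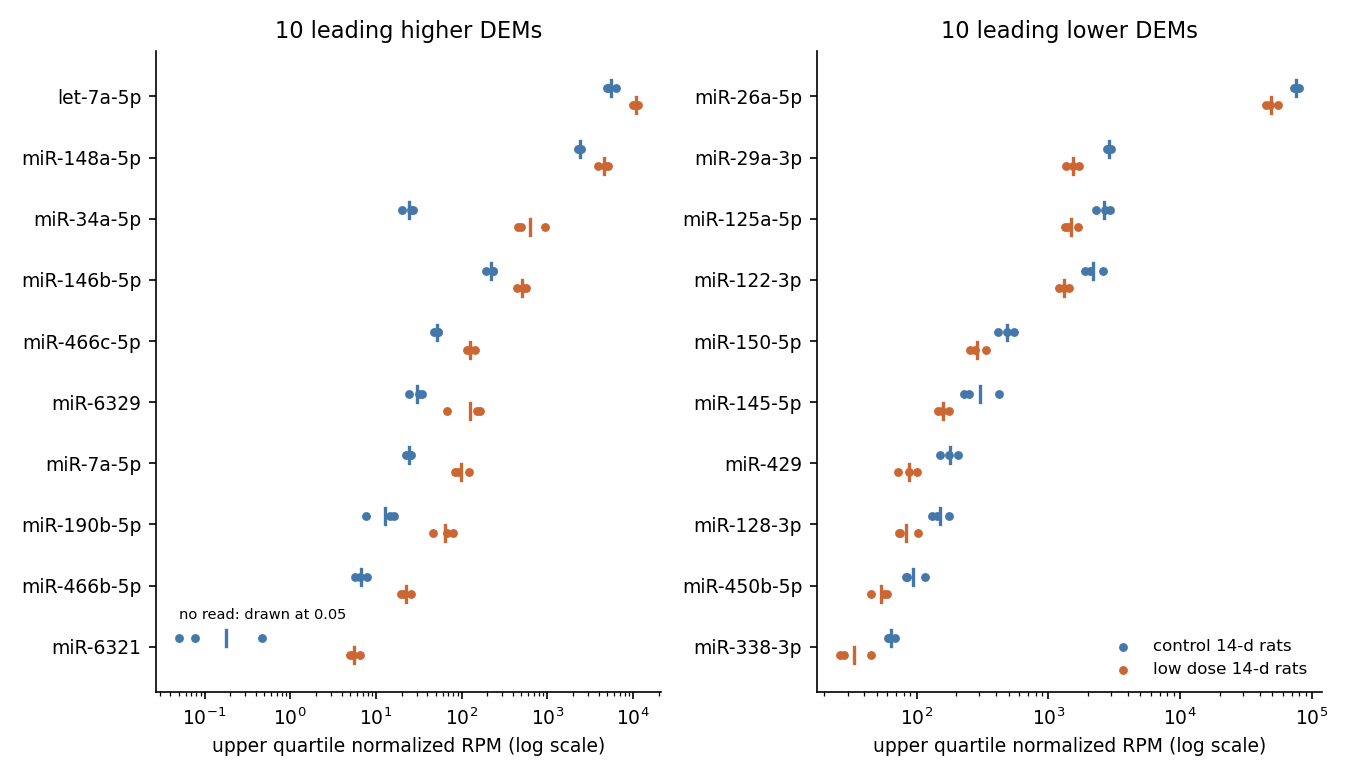
Upper quartile normalized RPM of each rat (points, log axis) and the group means (vertical marks) for the 10 leading DEMs in each direction. Each group had n = 3 rats. The DEMs were taken by p-value from those with an adjusted p below 0.05 and without overlap between the groups. The control rat without a miR-6321 read is drawn at 0.05. By this selection, the treated rats lie above the controls in every row of the left panel and below them in every row of the right panel.

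The let-7 family, whose guides repress LIN28, RAS and MYC and are abundant in mature tissue, moved by strand. All 9 guide strands, let-7a to let-7i and miR-98-5p, had log2 fold changes above 0 (0.05 to 0.98, median 0.66), and 5 of the 9 were DEMs, all higher. None of the 10 tested passenger strands was a DEM, and their log2 fold changes ran from -0.46 to 0.13 with a median of -0.05. Of these, let-7a-1-3p and let-7c-2-3p have the same mature sequence. The same reads may therefore count for both, in the number of strands and in the summed RPM. The median over all tested miRNAs was 0.11. The summed RPM before scaling were 32365 to 41276 in the controls and 45356 to 49188 in the treated rats for the guides, and 736 to 822 against 618 to 650 for the passengers.

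let-7a-5p measured 5236, 5013 and 6384 RPM in the controls and 10913, 9976 and 11476 RPM in the treated rats (log2 fold change 0.96, standard error 0.13, edgeR adjusted p = 0.000264). miR-98-5p measured 161, 153 and 187 RPM and 321, 329 and 342 RPM (log2 fold change 0.98, edgeR adjusted p = 0.000748). let-7g-5p, let-7d-5p and let-7i-5p had log2 fold changes of 0.74, 0.70 and 0.66. At the other end, let-7e-5p overlapped between the groups, with 271, 336 and 373 RPM against 357, 304 and 351 RPM. The number of let-7 guide DEMs was 2 with TMM and 3 with DESeq2's size factors or library size alone. The direction of let-7e-5p turned with TMM (-0.11), DESeq2's size factors (-0.08) and library size alone (-0.10), while the other 8 guides stayed above 0. let-7a-5p and miR-98-5p were DEMs under every scaling.

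Hepatocyte miRNAs were higher in total, with summed RPM before scaling of 233252 to 246685 in the controls and 298918 to 312815 in the treated rats. This sum was carried mostly by miR-192-5p and miR-122-5p. Of the 6 tested strands of miR-122, miR-192 and miR-194, 2 were higher and 1 lower as DEMs. miR-192-5p, with miR-22-3p the most abundant miRNA of the control livers, measured 195454, 170746 and 194408 RPM against 254571, 256003 and 270110 RPM. This was a log2 fold change of 0.48 (edgeR adjusted p = 0.0017), below the fold threshold. miR-194-3p went from 30.7, 28.2 and 28.9 RPM to 51.1, 57.8 and 62.3 RPM (log2 fold change 0.96). The log2 fold change of miR-194-5p, which comes from the same hairpin and also from another on chromosome 13, was 0.03.

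The strands of miR-122, which in hepatocytes supports lipid metabolism, went in opposite directions. miR-122-5p increased from 31466, 32109 and 40418 RPM to 62058, 44447 and 59450 RPM (log2 fold change 0.67, standard error 0.14, edgeR adjusted p = 0.00372). With TMM its log2 fold change was 0.52, under the fold threshold. miR-122-3p decreased from 1884, 2074 and 2619 RPM to 1446, 1200 and 1307 RPM (log2 fold change -0.73, standard error 0.15, edgeR adjusted p = 0.0036). Against the 7-d and 28-d controls the 3p strand was at -0.39 and not a DEM.

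The miR-148/miR-152 family, which represses the DNA methyltransferase DNMT1, had 4 higher and 0 lower DEMs among 6 tested strands, with a median log2 fold change of 0.75. Over all 301 tested miRNAs, 22.9% were higher and the median was 0.11. The call of miR-148b-3p (0.60) lay close to the fold threshold and was not kept under every scaling. miR-148a-5p measured 2440, 2293 and 2488 RPM against 5141, 3916 and 4757 RPM (log2 fold change 0.94, edgeR adjusted p = 0.00044). The 3p strand of that hairpin, miR-148a-3p, had a log2 fold change of 0.05. Both strands of miR-152 were higher, miR-152-3p by 0.89 and miR-152-5p by 0.91 on the log2 scale.

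In the miR-181 family, 3 of 7 tested strands were higher and 0 lower, with a median log2 fold change of 0.58. miR-181a-1-3p had the largest value, 0.79 (edgeR adjusted p = 0.0054). Both strands of miR-181c were DEMs only with upper quartile scaling, since TMM, DESeq2's size factors and library size alone took them under the fold threshold.

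Of 7 tested strands of the metabolic miRNAs miR-103/miR-107, miR-33 and miR-378, 3 were higher. miR-103-3p measured 636, 637 and 772 RPM against 1235, 1059 and 1227 RPM (log2 fold change 0.78, edgeR adjusted p = 0.00177). miR-378a-3p, whose hairpin lies in the gene of the mitochondrial coactivator PGC-1β, measured 20563, 20078 and 22690 RPM against 45409, 34627 and 27181 RPM (log2 fold change 0.76). miR-378b had a log2 fold change of 0.91, and its reads may be shared with miR-378a-3p.

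Among the lower miRNAs, miR-29a-3p, which represses collagens and other matrix genes, had the smallest p-value. It measured 2849, 2768 and 2977 RPM in the controls and 1537, 1362 and 1705 RPM in the treated rats (log2 fold change -0.90, standard error 0.13, edgeR adjusted p = 0.000451). The groups were well apart. miR-29c-3p, with the same seed, measured 324, 317 and 347 RPM against 250, 228 and 232 RPM, a log2 fold change of -0.48 (edgeR adjusted p = 0.0225) below the fold threshold. The log2 fold change of miR-29b-3p was -0.19 (edgeR adjusted p = 0.451). Of 5 tested strands 1 was a DEM, and the summed RPM before scaling were 3371 to 3440 in the controls and 1643 to 1829 after TAA. With all 12 controls of the series, miR-29a-3p was at -0.73 and not a DEM. Those 12 include a 3-d control library of only 293331 counted reads, with a limit of detection of 10.2 RPM.

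miR-26a-5p, which represses cyclins, was the most abundant lower DEM. It measured 73038, 75797 and 79577 RPM against 54824, 44989 and 47598 RPM (log2 fold change -0.63, standard error 0.10, edgeR adjusted p = 0.000864). This fold lay close to the threshold, and without rat 41 (-0.57) or with all 12 controls (-0.47) it was not a DEM. Those 12 include the 3-d control library of 293331 counted reads. miR-26b-5p has the same seed and had a log2 fold change of 0.36. Of the 6 tested strands of miR-26 and miR-101, 1 was lower.

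miR-125a-5p went from 2675, 2912 and 2281 RPM to 1403, 1329 and 1687 RPM (log2 fold change -0.83, standard error 0.14, edgeR adjusted p = 0.00134). Of 9 tested strands of the miR-99/miR-100 and miR-125 families, it was the lower DEM, and miR-99a-3p was the higher one (log2 fold change 0.78). The list median was -0.37.

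The miR-200 family, which keeps the epithelial state and in liver marks bile duct cells, split in direction, with 3 higher and 1 lower DEMs among 6 tested strands. miR-429 fell from 208, 178 and 151 RPM to 87.4, 72.9 and 101 RPM (log2 fold change -1.04, edgeR adjusted p = 0.00177). miR-200a-3p, from the same genomic cluster, measured 77.4, 67.1 and 58.6 RPM against 126, 82.5 and 113 RPM (log2 fold change 0.66), a call that was lost under the other scalings. miR-200a-5p and miR-200c-3p had log2 fold changes of 1.05 and 1.14 at under 20 RPM, the latter with overlapping groups. miR-182, an epithelial miRNA of the miR-183/miR-96/miR-182 cluster, was higher by 0.66, and this call too was lost under the other scalings.

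The DEMs among the leukocyte, red blood cell and miR-143/miR-145 lists were 2, 1 and 1, each lower, while other members of the red blood cell and miR-143/miR-145 lists had log2 fold changes above 0. miR-150-5p, a lymphocyte miRNA, went from 484, 417 and 548 RPM to 276, 257 and 337 RPM (log2 fold change -0.74, edgeR adjusted p = 0.00565). miR-223-3p, a myeloid miRNA, went from 69.3, 82.8 and 118 RPM to 68.2, 60.5 and 49.8 RPM (log2 fold change -0.60), which was not a DEM without rat 15 (-0.35) or rat 42 (-0.48). Of the 4 tested leukocyte miRNAs, 2 were lower, and their summed RPM before scaling were 3146 to 3846 in the controls and 2083 to 2442 after TAA. The part of cell composition in the other results was not tested. miR-144-3p, a red blood cell miRNA, had a log2 fold change of -0.91 with overlapping groups. The summed red blood cell list was at 3597 to 4935 RPM in the controls and 4171 to 5302 RPM after TAA.

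miR-145-5p, a miRNA of smooth muscle and stellate cells, measured 426, 251 and 229 RPM in the controls and 145, 156 and 177 RPM after TAA (log2 fold change -0.92, edgeR adjusted p = 0.00835). Rat 13 was well above the other controls, and without it the log2 fold change was -0.59, still a DEM. Of 4 tested strands of the miR-143/miR-145 cluster, 1 was lower. The summed cluster was at 39099 to 41444 RPM in the controls and 42262 to 46345 RPM after TAA, carried by miR-143-3p, which was higher at a fold below the threshold (log2 fold change 0.28, edgeR adjusted p = 0.0355).

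Rat 13 was also the highest control for miR-19a-3p, miR-19b-3p, miR-221-5p and miR-455-3p. miR-19a-3p measured 86.9, 37.7 and 48.6 RPM against 18.8, 29.03 and 28.1 RPM (log2 fold change -1.19, without rat 13 -0.77). miR-19b-3p, with the same seed, had a log2 fold change of -0.87, and without rat 13 it was at -0.49 and not a DEM. These 2 were the DEMs among 9 tested strands of the MYC-induced miR-17 to miR-92a cluster, whose other members had log2 fold changes between -0.12 and 0.43. miR-221-5p was at -0.97 with overlapping groups and at -0.52 without rat 13, when it was not a DEM.

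miR-455-3p, which was selected in the study beside miR-34a-5p, measured 154, 68.3 and 101 RPM in the controls and 42.6, 41.9 and 72.1 RPM after TAA. The lowest control was below the highest treated rat. The log2 fold change of -1.05 had a standard error of 0.30 (edgeR adjusted p = 0.0167). It was -0.70 without rat 13, and against the 7-d and 28-d controls it was -0.47 and not a DEM. The 5p strand of the same hairpin had a log2 fold change of 0.28 (edgeR adjusted p = 0.288).

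The miR-106b/miR-93/miR-25 cluster, transcribed within the cell cycle gene Mcm7, and the miR-322/miR-503/miR-450/miR-542 cluster of the X chromosome, whose miR-322 and miR-503 repress cell cycle genes, each held DEMs of both directions. In Mcm7, at chr12:22156641-22156930 (GRCr8), miR-25-3p went from 1073, 1035 and 1234 RPM to 1803, 1912 and 2290 RPM (log2 fold change 0.84, edgeR adjusted p = 0.00108). miR-93-3p fell from 9.07, 7.41 and 8.43 RPM to 2.15, 3.97 and 5.10 RPM (log2 fold change -1.14, edgeR adjusted p = 0.0136). The 5p strand of miR-93 had a log2 fold change of 0.58. In all, 3 of these 6 strands were higher and 1 lower, beside 22.9% and 9.63% of all tested miRNAs. Of the higher calls, those of miR-25-5p (0.73, edgeR adjusted p = 0.0738) and miR-106b-3p (0.69) were not kept under every scaling.

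On the X chromosome, miR-450b-5p (-0.80), miR-503-3p (-1.02) and miR-322-5p (-0.62) were lower and miR-542-3p (0.64) was higher, out of 8 tested strands with a median log2 fold change of -0.53. Against the 7-d and 28-d controls, miR-450b-5p (-0.55), miR-503-3p (-0.56) and miR-322-5p (-0.23) were not DEMs. The call of miR-542-3p was lost under the other scalings. In the miR-15/miR-16/miR-195/miR-497 family of 7 tested strands, miR-15b-3p was higher (0.93) and miR-195-5p lower (-0.60), and miR-195-5p was at 0.02 against the 7-d and 28-d controls.

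Other leading lower DEMs were miR-128-3p, with 131, 143 and 175 RPM against 73.5, 74.6 and 102 RPM (log2 fold change -0.84, edgeR adjusted p = 0.00565). miR-338-3p had 69.0, 61.6 and 61.2 RPM against 45.5, 28.4 and 26.1 RPM (log2 fold change -0.94). In both, every treated rat was below every control, as the choice of the leading DEMs required. In the miR-193 and miR-365 clusters, miR-193b-3p was higher (0.84) and miR-365-3p lower (-0.69) among 4 tested strands.

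**Figure D3:**
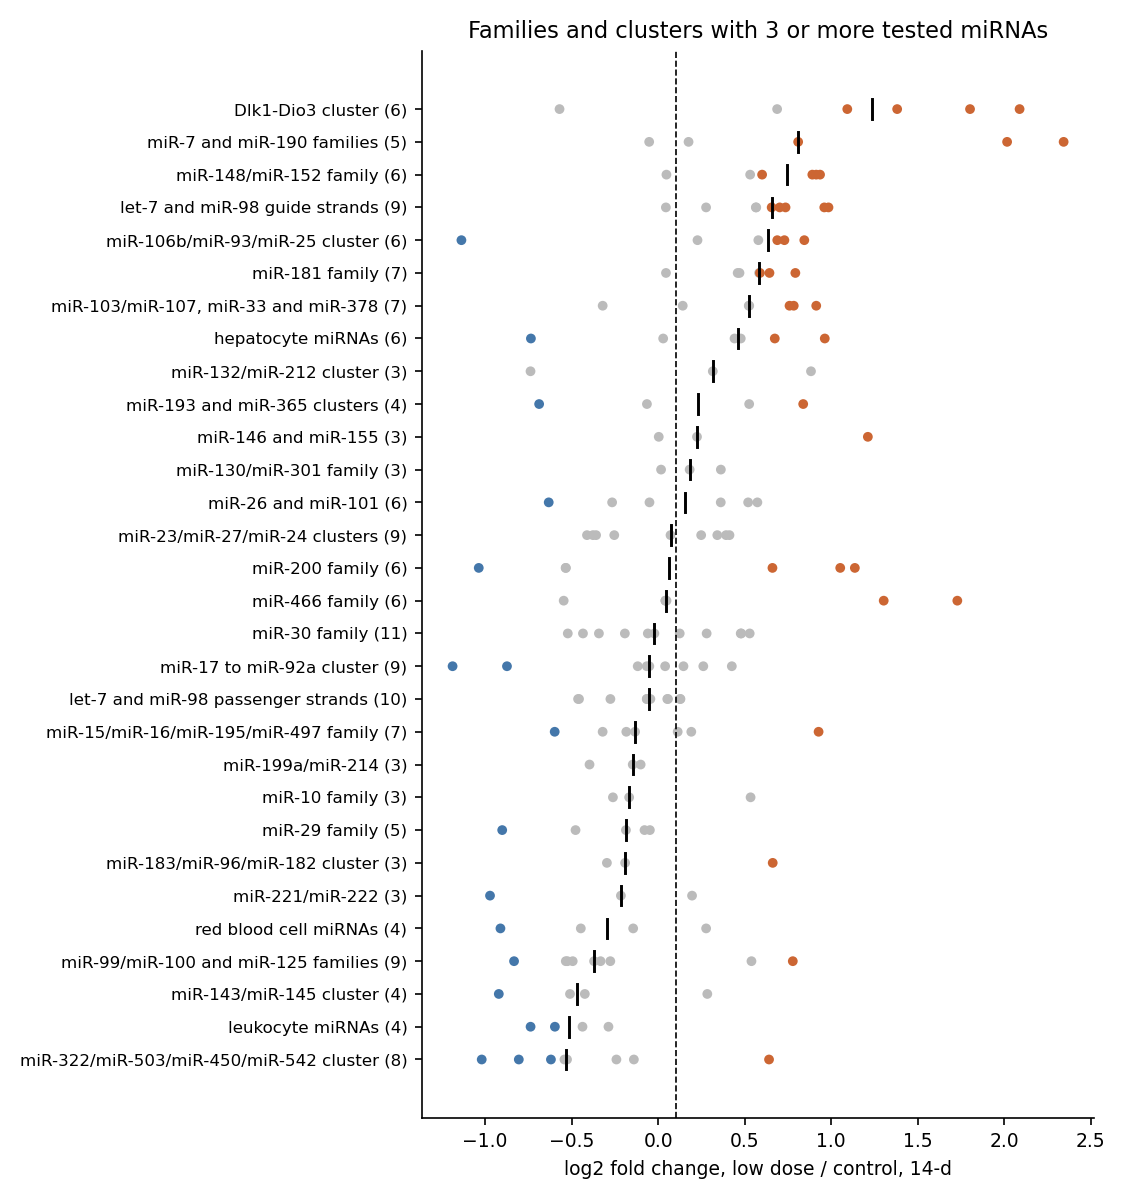
Log2 fold changes of the tested members (points) of each family, cluster or marker list with 3 or more tested miRNAs, with the list median (vertical mark) and the number tested in parentheses. Higher DEMs are orange, lower DEMs blue and other miRNAs gray, and the dashed line is the median of all tested miRNAs (0.11). The let-7 guide strands lie mostly to the right of it, with a median of 0.66, and the passenger strands mostly to the left of it, with a median of -0.05.

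Of 38 lists in all, 12 held no DEM, with 51 tested entries. They were the let-7 and miR-98 passenger strands, miR-21, miR-199a/miR-214, miR-10, miR-132/miR-212, miR-30, miR-23/miR-27/miR-24, miR-130/miR-301, miR-126, miR-22, muscle and pancreas miRNAs. miR-21-5p, an abundant miRNA linked to liver injury, measured 45115, 42781 and 46078 RPM against 44144, 46968 and 50627 RPM (log2 fold change 0.08, edgeR adjusted p = 0.544). In the miR-30 family, 0 of 11 strands were DEMs while 4 had an adjusted p below 0.05 at smaller folds. The brain list had 1 tested member, miR-9a-5p, which was higher at 11.5, 4.89 and 6.29 RPM against 2.99, 2.22 and 2.48 RPM (log2 fold change 1.55, edgeR adjusted p = 0.00565).

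Both strands were tested for 81 hairpins, paired by name. A strand such as miR-194-5p can also come from another hairpin. Both were higher DEMs in 7 and both lower in 1, 33 had 1 DEM strand, 38 had none, and in 2 the strands were DEMs of opposite direction. The 2 opposite pairs were miR-122 and miR-1843a, the latter with a 5p strand at 0.83 and a 3p strand at -0.67. The 2 log2 fold changes had the same sign in 50 of the 81 pairs. Across hairpins, which are not independent replicates and share the same 6 libraries, Pearson's r between the strands was 0.125.

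**Figure D4:**
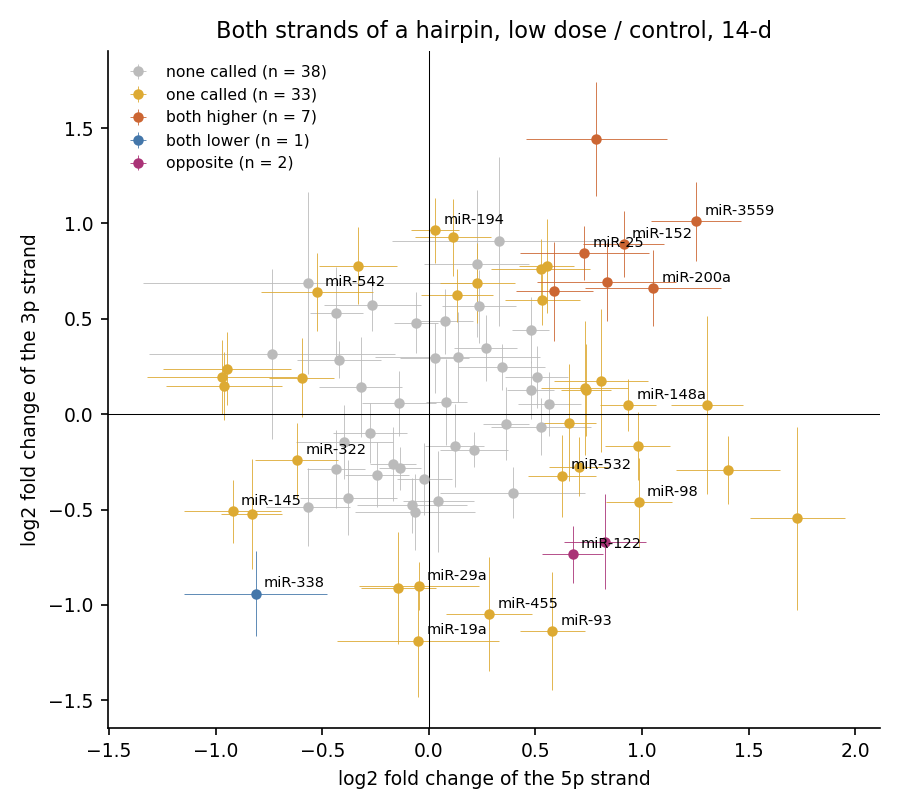
Log2 fold change of the 3p strand against that of the 5p strand of 81 hairpins with both strands tested, with standard errors as bars. Colors give the class of the pair. miR-122 lies in the lower right with a 5p value of 0.67 and a 3p value of -0.73, and miR-29a, miR-19a, miR-93 and miR-455 lie low with only the 3p strand called.

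The imprinted Dlk1-Dio3 cluster, which is active in the fetus and mostly silent in adult liver, was at low levels. Of its 84 listed strands, 77 had a read in the series, 33 had none in the 6 libraries and 6 were tested. Of the tested strands, 4 were higher. miR-127-3p measured 10.8, 10.7 and 8.90 RPM against 24.2, 22.6 and 32.2 RPM (log2 fold change 1.38, edgeR adjusted p = 0.000748), and miR-411-5p 2.61, 3.33 and 4.57 RPM against 10.6, 11.003 and 15.3 RPM (log2 fold change 1.80). miR-541-5p and miR-434-3p had log2 fold changes of 2.09 and 1.09. None of the 4 was a DEM against the 7-d and 28-d controls, where the values were 0.56, 0.67, 0.94 and -0.39 in the same order.

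Since the controls of each time point are separate rats, the 14-d controls were compared with the 7-d and 28-d controls. Of the 301 miRNAs, 13 were DEMs (4.32%), 24 had an unadjusted p below 0.05 and 0 had an adjusted p below 0.05 in edgeR. Against the 7-d controls alone 31 were DEMs, and against the 28-d controls alone 25. With the 7-d and 28-d controls in place of the 14-d controls, low dose 14-d had 101 DEMs, 72 of them among the 98, and 2 of the 98 changed sign.

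To compare the low dose 14-d effect with neighboring conditions, the differences of effects were tested in a single fit of the 48 libraries with Benjamini-Hochberg adjustment. The difference from the low dose 7-d effect was called for 0 miRNAs (0%) in edgeR, with 12 at an unadjusted p below 0.05, and for 3 in a fit of these groups alone. For miR-34a-5p the effects were 3.48 at 7-d and 4.70 at 14-d, and for let-7a-5p 0.94 and 0.96.

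The difference from the low dose 28-d effect was called for 1 miRNA (0.332%), miR-434-3p, at 3.45 (standard error 0.78, edgeR adjusted p = 0.0238). This count rested on single libraries, since it was 31 without low dose 28-d rat 29, 2 without low dose 14-d rat 40, and 0 without any one of control rats 13, 14, 16 and 18 or low dose rats 28, 30 and 42. The low dose 28-d effects were 3.87 for miR-34a-5p, 0.37 for let-7a-5p and -0.44 for miR-29a-3p.

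Low dose 14-d was compared with middle dose 14-d (15 mg/kg, n = 3) in the same fit. Of the 301 miRNAs, 70 differed (23.3%), 46 higher and 24 lower at the low dose. With TMM these numbers were 35 and 35, with DESeq2's size factors 26 and 36, and with library size alone 16 and 41. The 70 calls became 37 without middle dose rat 32, 44 without middle dose rat 33 and 38 without low dose rat 40. Of the 9 let-7 and miR-98 guides, 8 were called higher at low dose. The differences of all 9 ran from 0.51 to 1.37 on the log2 scale with a median of 0.94, and 0 of the 10 passengers were called. Under TMM, DESeq2's size factors and library size alone, 8, 7 and 6 of the 9 guides were higher. let-7a-5p differed by 1.20 (standard error 0.22, edgeR adjusted p = 0.000491), with an effect of 0.96 at low dose and -0.24 at middle dose against the same controls.

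The miR-99/miR-100 and miR-125 families differed the other way, with 5 of 9 tested strands lower at low dose than at middle dose, 1 higher and a median difference of -1.10. miR-100-5p differed by -2.94 (standard error 0.56, edgeR adjusted p = 0.000491), with effects of -0.53 at low dose and 2.40 at middle dose. miR-99a-5p differed by -1.67. miR-501-3p, at under 15 RPM in the 14-d controls and low dose rats, differed by -2.94. miR-148a-5p (1.36), miR-98-5p (1.37) and miR-1843a-5p (0.87) were higher at the low dose. The call was not made for miR-34a-5p, whose effects were 4.70 at low dose and 4.08 at middle dose.

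**Figure D5:**
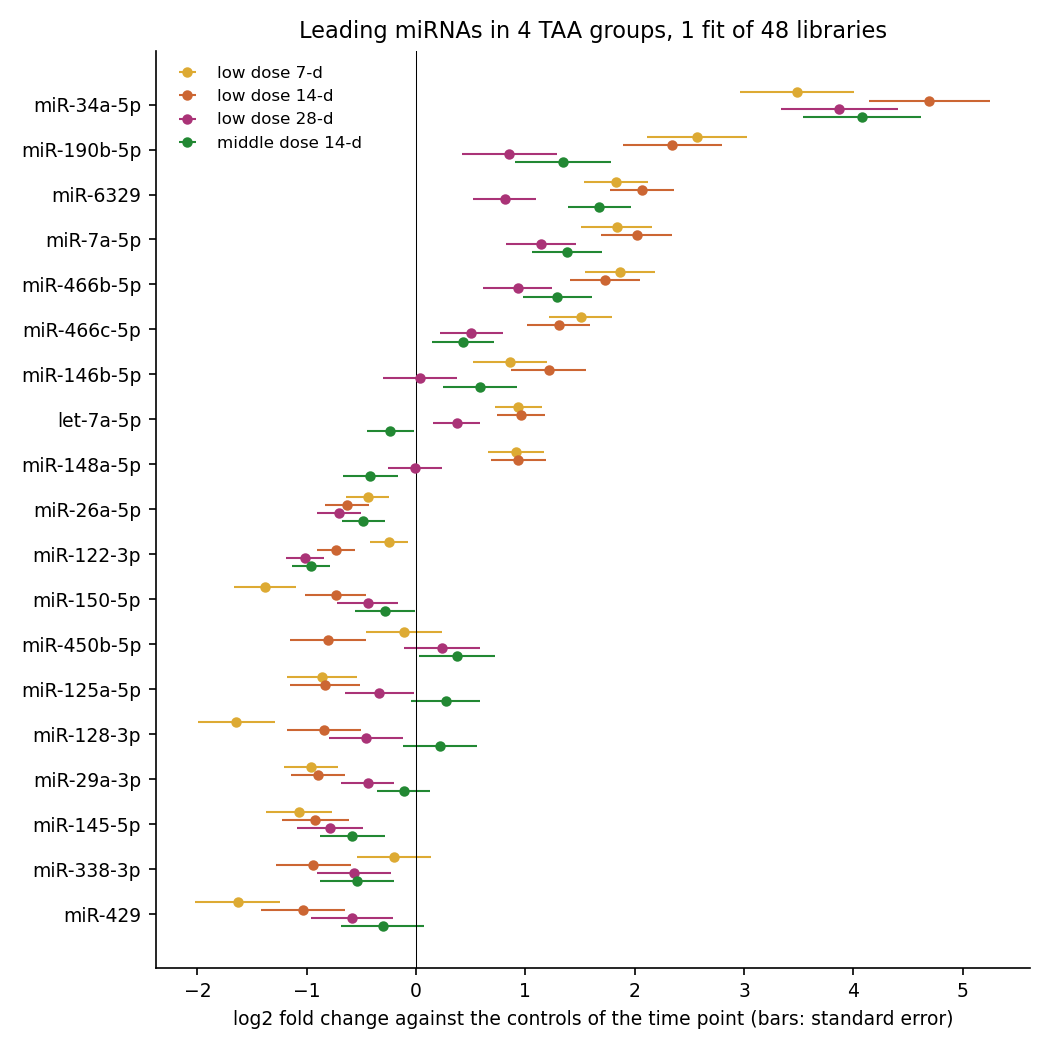
Log2 fold changes (points) and standard errors (bars) of 19 leading miRNAs in 4 groups (low dose at 7-d, at 14-d, at 28-d and middle dose at 14-d), each against the 3 controls of its time point, from a fit of 48 libraries. The low dose and middle dose 14-d values share their controls, and miR-6321 is left out because of its few reads. let-7a-5p and miR-148a-5p lie above 0 at low dose 14-d and below 0 at middle dose 14-d, and miR-34a-5p lies far to the right in all 4 groups.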

How the data were processed

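The authors trimmed adaptors, mapped reads to miRBase with miRDeep2 and deposited raw read counts for every precursor and mature strand, without normalization. The submitters' processing notes also name FastQC and rn5. Of 847 rows, a mature miRNA on several precursors was represented by the row with the most reads, giving 764 miRNAs, of which 664 had reads. Testing was limited to the 301 that reached 5 RPM in 3 or more of the 48 libraries.

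The 6 libraries were fitted together in edgeR 4.0.16 (R 4.3.3), scaled by upper quartile and tested with its quasi-likelihood F statistic. With 3 rats against 3, an exact permutation test cannot go below p = 0.1, so none was used. Standard errors came from the log2 fold change and F. P-values were adjusted over all tested miRNAs. Differences between doses or times were contrasts of 1 fit of 16 groups. Tests were checked on simulated counts. Tables used Python 3.11.15.

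The comparison, the 38 lists and the tests were chosen with earlier results of these data known. Named miRNAs were the 10 higher and 10 lower DEMs with the smallest p-values among those without overlap and with an adjusted p below 0.05. Up to 4 DEMs of each list (or, with no DEM, the member with the smallest p) and miRNAs named by the study were also named. So were the 5 most abundant, and up to 3 called in each direction of each contrast. Relatives with the same seed, sister strands, other list members and other named miRNAs were added after their values were seen. Alternatives were other scalings, filters, tests (DESeq2 1.42.0 among them), controls and ways of joining precursors, and each library left out.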

Additional observations from a re-analysis of the deposited data

Results flagged for a closer look

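Among the 20 leading DEMs of low dose 14-d, 8 differed between low and middle dose 14-d in the fit of 48 libraries (edgeR adjusted p below 0.05). Over all 301 tested miRNAs, 70 did (23.3%). The 20 were picked on values of the same low dose rats, which favors a difference, so these shares cannot be compared. Higher at low dose were let-7a-5p by 1.20, miR-148a-5p by 1.36 and miR-466c-5p by 0.88 on the log2 scale. Lower at low dose were miR-29a-3p (-0.79), miR-125a-5p (-1.10), miR-128-3p (-1.06) and miR-450b-5p (-1.18). For miR-6321 the fitted difference was 7.33, but the middle dose rats held 0, 0 and 1 reads, so this value depends on the fit. The low dose mean of 5.34 ± 0.751 RPM before scaling (SD, n = 3) was at least 20.8-fold higher than the mean limit of detection of the middle dose libraries, 0.257 RPM. Both doses share the 14-d controls, and their log2 effects against them, at low and middle dose, were 0.96 and -0.24 for let-7a-5p, 0.94 and -0.42 for miR-148a-5p, -0.90 and -0.11 for miR-29a-3p, and -0.83 and 0.27 for miR-125a-5p.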

How the results depend on the processing

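The number of DEMs stayed within 1.5 times 98 under every alternative run, from 70 to 127. Of the 69 higher DEMs, 39 kept their call with at least 5 RPM required in each of the 6 libraries. This filter left 26 of the 98 DEMs untested. Instead of 29 lower DEMs there were 51 with TMM, 45 with DESeq2's size factors, 46 with library size alone, 76 with no filter, 44 with the DESeq2 Wald test, 47 with summed precursors and 15 with all 12 controls. The count with an adjusted p below 0.05 (121) fell to 61 with all 12 controls and 67 in the fit of 48 libraries, and ran from 80 (without low dose rat 42) to 108 with single libraries left out. The difference from low dose 7-d was called for 3 miRNAs in a fit of its own groups, and that from low dose 28-d for 2 there, 0 with library size alone and 0 to 31 without single libraries. Low against middle dose gave 41 calls with no filter, 122 in a fit of its own groups and 37 (without middle dose rat 32) to 58 without single libraries. The control comparison gave 29 DEMs with no filter, 31 against 7-d controls alone and 25 against 28-d controls alone, instead of 13. Log2 fold changes that changed sign with TMM, DESeq2's size factors, library size, no filter, the DESeq2 Wald test and summed precursors were -0.081, -0.045, -0.063, -0.15, -0.045 and -0.067 for miR-21-5p, -0.042, -0.0069, -0.029, -0.12, -0.0069 and -0.029 for miR-375-3p, and -0.12, -0.077, -0.10, -0.17, -0.077 and -0.10 for miR-148a-3p, none of them a DEM in the main comparison. With 5 RPM in each library miR-21-5p was at -0.017 and miR-148a-3p at -0.052, and without single libraries miR-148a-3p ran from -0.056 to 0.20. With all 12 controls miR-375-3p was at -0.11, miR-193b-3p at -0.61, miR-10b-5p at -0.80 and miR-434-3p at -0.57. With the 7-d and 28-d controls miR-148a-3p was at -0.045, miR-10b-5p at -1.36, miR-434-3p at -0.39 and miR-195-5p at 0.024. The 3-d control library of lowest total held 293331 counted reads, with a limit of detection of 10.2 RPM. Of the DEMs of the main comparison, 58 kept their call with all 12 controls and 74 without this library. With the 12 controls less this library, chosen after seeing the data, miR-148a-3p, miR-10b-5p and miR-434-3p were at -0.024, -0.89 and -0.53. The cause was not tested. No paired analysis was possible because the groups share no replicate numbers. Depth limited strands under about 5 RPM.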

Other observations

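Several DEMs stood outside the lists and were named after their values were seen. miR-340-5p went from 323 to 638 RPM (means of 3 rats, log2 fold change 0.98), miR-674-5p from 8.61 to 22.8 RPM (1.41) and miR-598-3p from 4.19 to 9.92 RPM (1.24). Both strands of miR-3559 were higher, the 5p strand by 1.25 and the 3p strand by 1.01. miR-203a-3p and miR-203b-3p, whose hairpins overlap on opposite strands of the genome, were higher by 0.73 and 0.99. In the miRNA cluster within the chloride channel gene Clcn5, miR-188-5p (0.79) and miR-532-5p (0.62) were higher and miR-501-3p (-0.97) was lower.

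miR-201-5p had the most negative log2 fold change among the DEMs, -1.37 (edgeR adjusted p = 0.0166), with means of 15.6 RPM in the controls and 5.99 RPM after TAA. miR-511-5p, whose gene lies in the macrophage mannose receptor gene, was lower by -0.96. miR-335, whose hairpin lies in the imprinted gene Mest, was lower by -0.69, with means of 364 and 226 RPM. Median GC content was 45.5% in the higher, 43.9% in the lower and 45.6% in all tested miRNAs with a RefSeq sequence.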
